A study of Mus musculus with 61 samples.

Results

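The PIM kinases, Myc and the D cyclins were followed as 8 genes, Pim1, Pim2, Pim3, Myc, Mycn, Ccnd1, Ccnd2 and Ccnd3, among the 24421 genes counted in 61 mouse RNA-seq libraries. The members were picked by symbol. All 8 were tested in each of the 5 fits, since each had at least 10 reads over the libraries of every fit.

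The study asked how leukemia-associated changes at Y665, a tyrosine in the SH2 domain of STAT5B, alter transcription in T cells and spleen. Naive CD4+ T cells, pooled from lymph nodes and spleens of C57BL/6 mice, were activated and transduced with an empty retroviral vector or one carrying STAT5B, either unchanged or with N642H, Y665H or Y665F. They came from wild-type mice (WT cells) or from mice whose Stat5a/b locus was removed by Cd4-Cre (null cells). Splenic T cells and spleens came from WT mice and from mice with Y665H or Y665F in their own Stat5b gene.

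Each of the 10 CD4 groups held 3 libraries of GFP+ sorted cells kept in IL-2 for 48 h after transduction. Cd4-Cre acts from the double-positive stage of the thymus, so that CD8 cells lose the locus too. The genotype entry of all 30 CD4 labels reads Stat5a/b flox/flox, those titled WT included, and the background was therefore taken from the titles. "Empty" was read from the titles as well. Splenic T cells, isolated with a kit, were kept for 24 h with IL-2 and IL-7 (4 WT, 4 Y665H and 4 Y665F libraries). Y665H replicate 4 held the reads of replicates 1 and 2 added together, in depth (5327354, from 3310342 and 2017012) and for every member. It is no separate sample, so that the Y665H T cells gave at most 3. All fits of splenic T cells that kept it counted it as a library of its own. A further 3 libraries, of Y665F alone, had no interleukins. The methods give no culture for these, and the paper speaks in 1 place of unstimulated T cells sequenced right after isolation. Libraries read here as whole spleen, not stimulated, made up the rest (4 WT libraries, 7 of Y665F and 5 of Y665H). Their titles say Splenocyte. The paper names frozen spleen tissue in its methods, and splenocytes or T cells where it gives the unstimulated results. The labels give an age of 2 months for all 61 libraries. The Y665H mice were made in C57BL/6N eggs with an adenine base editor and the Y665F mice with CRISPR/Cas9 and a single-stranded donor. Whether the mutant mice used here carried 1 or 2 changed copies is not stated, and an extraction text in the labels names mammary tissue.

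Reads assigned to genes numbered 18825994 to 49850689 per CD4 library (median 34590958) and 24203179 to 43330536 per spleen library (median 31308525.5). Splenic T cells were read less deeply, with 13695161 to 27394249 reads in WT, 2017012 to 15896125 in Y665H, 2851451 to 21423720 in Y665F with interleukins and 7198500 to 14809823 without. Levels are CPM, counts scaled to the reads on genes of a library, after TMM scaling, a correction for composition. A gene passed a comparison with an edgeR p-value, adjusted over all genes of the fit, under 0.05. These p-values measure only the spread between the libraries at hand.

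STAT5 proteins are transcription factors that IL-2, IL-7 and related cytokines activate through JAK kinases bound to their receptors. PIM kinases are serine/threonine kinases that need no activating phosphorylation, so that their activity follows their abundance, and they phosphorylate regulators of survival, translation and the cell cycle. MYC and MYCN are transcription factors that drive ribosome production and metabolism in growing cells. The D cyclins bind CDK4 and CDK6 and start the inactivation of RB, the brake on entry into S phase. In lymphocytes, PIM kinases, MYC and cyclin D2 are known as cytokine-induced genes, and PIM kinases cooperate with MYC in lymphoma.

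The mutant alleles rest on 1 guide, given in the study's supplementary text for both mouse lines, and it is shown because both alleles were made at the codon it covers. Capitals mark the PAM in the guide and, on the opposite strand, the tyrosine codon and the same codon in the window of the donor oligonucleotide. Counted from 1 at the 5′ end of that 23-base window, the donor changes A18T and C19T. The methods also name a silent C to G change that removes the PAM, which the donor as printed does not show in this window.
guide: tgaggtaattcaggtcccccAGG
strand opposite the guide: cctgggggacctgaatTACctca
donor window: cctgggggacctgaatTTTctca

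In the mm10 annotation Pim1 (ENSMUSG00000024014.8) lies at chr17:29490753-29496112, Pim2 (ENSMUSG00000031155.16) at chrX:7878262-7883432 and Pim3 (ENSMUSG00000035828.11) at chr15:88862186-88865726. Myc (ENSMUSG00000022346.15) lies at chr15:61985391-61990374 and Mycn (ENSMUSG00000037169.15) at chr12:12936093-12941914. Ccnd1 (ENSMUSG00000070348.5) spans chr7:144929931-144939925, Ccnd2 (ENSMUSG00000000184.12) chr6:127125162-127152193 and Ccnd3 (ENSMUSG00000034165.16) chr17:47505051-47599691. Pim1 and Ccnd3 share a chromosome, as do Pim3 and Myc. Genes on the opposite strand overlap exons of Pim1 (14.5% of its exon bases), Ccnd1 (23.4%), Ccnd2 and Ccnd3 (4.11%). For Ccnd2, Gm43126 overlaps 3.95% and 9330179D12Rik 3.91% of its exon bases. The strand setting of the counting was not stated.

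The bases before the starts of Pim3 and Pim1 are shown because these kinase genes rose with the same 3 constructs in null cells, with the values given further on. Promoter windows of 250 bases, from RefSeq on GRCm38.p6, matched 5 of the 8 members with 7 windows. Myc, Ccnd1 and Ccnd2 had no entry. The STAT consensus palindrome, TTC and GAA with 3 free bases between them, which reads the same on both strands, was in 0 of the 7 windows and in 2306 of all 32851 windows (7.02%). The E-box CACGTG, also the same on both strands, was in 1 window, inside Pim1, and in 1978 of all (6.02%). Capitals mark this E-box in the 26 bases from chr17:29493017-29493042. The upstream Pim1 window was 82.4% G and C, above 99.4% of all windows (median 52.4%), the Pim3 window 68% and the inner Pim1 window 48%.
Pim3 upstream, chr15:88861944-88862185, + strand: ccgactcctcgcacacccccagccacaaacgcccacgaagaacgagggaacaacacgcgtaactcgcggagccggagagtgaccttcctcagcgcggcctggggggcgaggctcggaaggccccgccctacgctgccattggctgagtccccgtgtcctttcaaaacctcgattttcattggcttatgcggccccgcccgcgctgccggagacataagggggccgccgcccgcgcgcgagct
Pim1 upstream, chr17:29490535-29490752, + strand: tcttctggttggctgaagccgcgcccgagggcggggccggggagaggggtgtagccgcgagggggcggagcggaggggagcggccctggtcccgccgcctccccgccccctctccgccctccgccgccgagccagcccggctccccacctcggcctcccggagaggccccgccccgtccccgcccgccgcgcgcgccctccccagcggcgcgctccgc
Pim1 inner window, chr17:29493017-29493042, + strand: aaacaggaatCACGTGgtctgaaacc

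The labels were checked on Stat5a and Stat5b. Stat5b was read at 2.78, 5.30 and 9.49 CPM in the null empty-vector libraries against 187, 209 and 207 in the WT ones, and Stat5a at 1.70, 3.13 and 6.66 against 137, 165 and 172. Stat5a was thus not at 0 in null cells. It increased from replicate 1 to replicate 3 in all 5 null groups and was highest in Y665H replicate 3 (14.9 CPM, 9.43% of the WT mean) and Y665F replicate 3 (8.45). The part of this remainder in the member levels was not tested. With a construct, Stat5b stood at 186 to 365 CPM in null and 374 to 564 in WT libraries. The T cell list (12 genes, Lck, Cd2 or Thy1 the most abundant) summed to between 4672 and 5846 CPM over the 10 CD4 group means, Cd4 was the most abundant coreceptor, and B cell markers summed to at most 5.27, erythroid markers to at most 3.52 and neutrophil markers to at most 2.81. NK cell markers summed to at most 0.361 and macrophage markers to at most 5.98. The globin genes Hba-a1, Hba-a2, Hbb-bs and Hbb-bt and the NK receptors Klra4 and Klra8 were at 0 in all CD4 groups.

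Some libraries stood apart. Spleen Y665H replicate 1 had 769 CPM of erythroid markers (the other 4 Y665H spleens 3594 to 5126), 2321 of proliferation markers (5684 to 8669) and 774 of T cell markers (522 to 583). Splenic T cell Y665F replicate 3 with interleukins had 1607 CPM of T cell markers (2461 to 3580 in the other 3), 775 of B cell and 1077 of erythroid markers, at a depth of 2851451 reads. Splenic T cell Y665H replicate 2 was the shallowest at 2017012 reads, and its reads are also part of replicate 4. Null Y665H replicate 3 held the most Stat5a of the null libraries (14.9 CPM, 1.98 and 4.94 in replicates 1 and 2), and without it 0 of 8 members passed for Y665H against the empty vector, as with it. In WT CD4 cells the replicate 3 library was the lowest of its group for Pim1 in all 5 vector groups.

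Levels between genes were compared per kilobase of exon. Ccnd2 was the highest of the 8 members on this scale in all 5 null groups, from 73.0 CPM per kb with the empty vector to 111 with Y665F, and in all 3 spleen groups. Pim1 had rank 6 in null empty-vector cells (8.40 CPM per kb) and rank 2 in WT empty-vector cells (82.9), and it was the highest member in all 4 splenic T cell groups (66.3 to 157). Mycn and Ccnd1 were the 2 lowest in every CD4 group. In spleen Ccnd1 reached 16.2 to 21.7 CPM per kb.

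**Figure D1:**
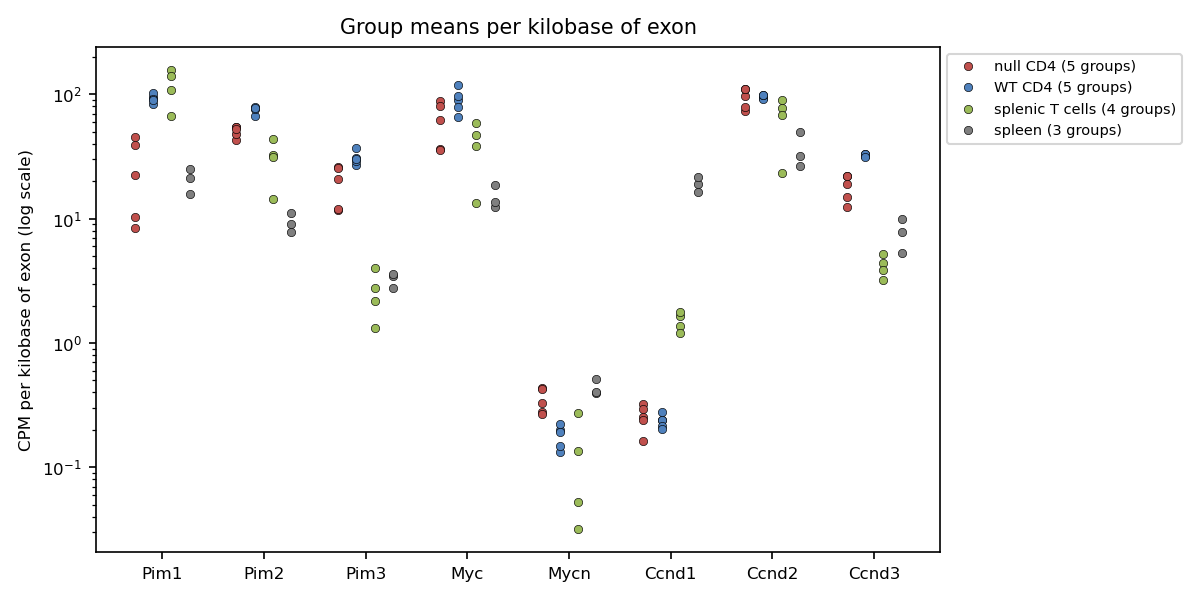
Mean level of each member in the 17 groups in CPM per kilobase of exon, on a log axis, with groups set out by material. Ccnd2 led in the 3 spleen groups and Pim1 in the 4 splenic T cell groups, where it stood between 66.3 and 157.

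Null cells with a construct were compared with null cells carrying the empty vector, to ask what each STAT5B form restores where the Stat5a/b locus was deleted. Pim1, Pim3, Myc and Ccnd3 rose with STAT5B, and these 4 and Ccnd2 rose with N642H and with Y665F. With STAT5B 4 of 8 members passed, all higher, where 1.52% of the 20113 genes tested passed. With N642H it was 5 of 8, all higher, against 11.6% of genes, and with Y665F 5 of 8, all higher, against 9.58%. With Y665H 0 of 8 passed in edgeR, against 0.0249% of genes, with 1 member at an unadjusted p under 0.05 and 0 passing in DESeq2. The median member stood at log2 fold changes of 0.51, 0.69, 0.69 and 0.15 with STAT5B, N642H, Y665F and Y665H, and the median of all genes at 0.00, 0.01, -0.02 and 0.04. The 4 comparisons share the 3 empty-vector libraries.

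Pim1, whose kinase product phosphorylates BAD and p27, was read at 16.9, 28.5 and 39.3 CPM in null empty-vector libraries (replicates 1 to 3). It stood at 78.2, 90.6 and 58.7 with STAT5B, at 160.1, 175 and 124 with N642H and at 139.8, 171 and 80.1 with Y665F. All libraries of these 3 constructs lay above all empty-vector ones. With Y665H the values were 22.4, 34.5 and 46.8, which overlap those of the empty vector. Each was above the empty-vector library of the same number. In a fit with a replicate block, which accounts for shared replicate numbers, Pim1 did not pass for Y665H. Pim1 rose by a log2 fold change of 1.42 (SE 0.31, adjusted p = 0.028, 3 of 3 above) with STAT5B, 2.40 (SE 0.32, adjusted p = 0.000116, 3 of 3), a fold of 5.29, with N642H, and 2.18 (SE 0.32, adjusted p = 0.000309, 3 of 3), a fold of 4.54, with Y665F. With Y665H the difference was 0.31 (95% interval -0.29 to 0.91, adjusted p = 0.921).

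Pim3, the third PIM kinase, was read at 24.6, 26.8 and 33.8 CPM with the empty vector and at 55.5, 52.1 and 44.6 with STAT5B. It stood at 68.9, 62.2 and 57.4 with N642H, 73.5, 65.8 and 46.6 with Y665F and 29.998, 28.7 and 28.0 with Y665H. The first 3 constructs did not overlap the empty vector and Y665H did. Pim3 rose by 0.83 (SE 0.15, adjusted p = 0.0114), 1.11 (SE 0.16, adjusted p = 0.000179) and 1.10 (SE 0.16, adjusted p = 0.000248) on the log2 scale with STAT5B, N642H and Y665F, in 3 of 3 libraries each. With Y665H it differed by 0.04 (95% interval -0.26 to 0.34). Pim2 ranged from 105 to 132 CPM with the empty vector and from 111 to 182 over the 4 constructs, and its log2 differences of 0.16 to 0.33 did not pass.

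Myc was read at 76.9, 86.3 and 133 CPM with the empty vector, at 173, 163 and 170.3 with STAT5B and at 239.8, 243 and 234 with N642H. With Y665F it stood at 212, 250.3 and 199, and with Y665H at 74.4, 98.9 and 117. The STAT5B, N642H and Y665F libraries lay above all empty-vector ones. Myc rose by 0.76 (SE 0.18, adjusted p = 0.0434, 3 of 3) with STAT5B, 1.24 (SE 0.18, adjusted p = 0.000294, 3 of 3) with N642H and 1.13 (SE 0.18, adjusted p = 0.000804, 3 of 3) with Y665F. With Y665H its log2 difference was -0.01 under TMM (95% interval -0.37 to 0.34) and 0.01 under RLE scaling. Mycn, a paralogue of Myc best known from neural and progenitor cells, stayed between 0.343 and 2.42 CPM over the 30 CD4 libraries and passed nowhere among them.

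Ccnd3, a D cyclin of lymphocytes, was read at 91.2, 113 and 119.7 CPM with the empty vector and 166, 185 and 152 after STAT5B, 196, 203 and 185 with N642H and 220.3, 198 and 164 with Y665F. It rose by 0.62 (SE 0.13, adjusted p = 0.0232, 3 of 3), 0.81 (SE 0.13, adjusted p = 0.000667, 3 of 3) and 0.82 (SE 0.13, adjusted p = 0.000804, 3 of 3) with the 3 constructs in this order. Its Y665H values were 116, 135 and 138, a log2 difference of 0.28 (95% interval 0.03 to 0.54, adjusted p = 0.896). These too were each above the same-numbered empty-vector library, and Ccnd3 did not pass for Y665H with the replicate block. Ccnd2 was read at 742, 641 and 676 CPM with the empty vector, 1032, 1028 and 1049 with N642H and 1008, 1011 and 1106 with Y665F, with no overlap. Ccnd2 rose by 0.56 (SE 0.10, adjusted p = 0.00159, 3 of 3) and 0.57 (SE 0.10, adjusted p = 0.00161, 3 of 3). With STAT5B it stood at 938, 881 and 901, a difference of 0.39 that did not pass (SE 0.10, adjusted p = 0.0573, 3 of 3 above). Replicate numbers pair the null libraries, and with a replicate block this Ccnd2 difference passed (adjusted p = 0.00434). Ccnd1 stayed between 0.445 and 1.84 CPM in CD4 cells, with a difference of -0.98 with N642H (SE 0.36, adjusted p = 0.0957, 3 of 3 below).

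The STAT5B calls were lost when single libraries were left out, while the fold changes moved less. The count of 4 became 0 without STAT5B replicate 1, STAT5B replicate 2, empty-vector replicate 1 or empty-vector replicate 2, and 3 without STAT5B replicate 3, where the adjusted p of Myc was 0.0688. Over those fits and the other alternatives the adjusted p reached 0.156 for Pim1, 0.103 for Pim3, 0.202 for Myc and 0.169 for Ccnd3, and the log2 fold changes lay at 1.15 to 1.72, 0.72 to 0.96, 0.60 to 1.03 and 0.50 to 0.69. With the replicate block all 4 and Ccnd2 passed, for a count of 5. The 1.52% of genes given further up for STAT5B is from the fit without the block. For N642H and Y665F all 5 members passed in each of the 13 alternatives apart from the fold minimum, with adjusted p of at most 0.0127 and 0.0144 across the 5 members. In a bulk library fewer cells of a type and less RNA per cell cannot be told apart.

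Genes around the members moved with the same constructs. Of 20 MYC target genes, which act in ribosome production and metabolism, 7 rose with STAT5B (median log2 fold change 0.53), 17 under N642H (0.80), 17 under Y665F (0.75) and 0 under Y665H (-0.01). None fell. Srm, the spermidine synthase, rose by 0.84, 1.23 and 1.17 and Cad, an enzyme of pyrimidine synthesis, by 1.21 and 1.11 with the 2 mutants. Of 10 STAT5 target comparators, 7 rose and 1 fell with STAT5B, 9 rose and 1 fell with N642H and with Y665F, and 1, Socs2, rose with Y665H (1.99). Socs2 and Cish, both feedback inhibitors of cytokine signaling, rose by 5.78 and 3.84 with N642H.

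Among 11 genes of the MYC network, Mxd4, which competes with MYC for MAX, fell by 0.95, 1.49 and 1.35 with STAT5B, N642H and Y665F. Mycl rose with N642H (2.43, SE 0.69) and Y665F (2.50, SE 0.69) at low levels. Its means were 0.160 CPM with the empty vector, 0.867 with N642H and 0.924 with Y665F. Of 14 PIM substrates and survival partners, 1, 3 and 3 rose and 0, 2 and 1 fell, with the anti-apoptotic Bcl2 at 0.78, 1.16 and 1.13. Of 20 genes of the cyclin-CDK-RB axis, 1, 2 and 2 rose and 0, 2 and 2 fell, beside 1.52%, 11.6% and 9.58% of all genes passing. Ccne1, cyclin E1, rose by 0.64, 0.83 and 0.76. With Y665H 0 genes of these 3 lists passed. Proliferation markers, 15 genes with Top2a the most abundant, summed to 5217 CPM (SD 606) with the empty vector, and to 6174, 6204, 6310 and 5372 under STAT5B, N642H, Y665F and Y665H in turn, where 2, 3, 3 and 0 genes rose. T cell markers rose in 1, 3, 3 and 0 and fell in 0, 6, 6 and 0 of 12, and 1 coreceptor gene fell and 1 neutrophil marker rose with N642H. Their part in the member changes was not tested.

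**Figure D2:**
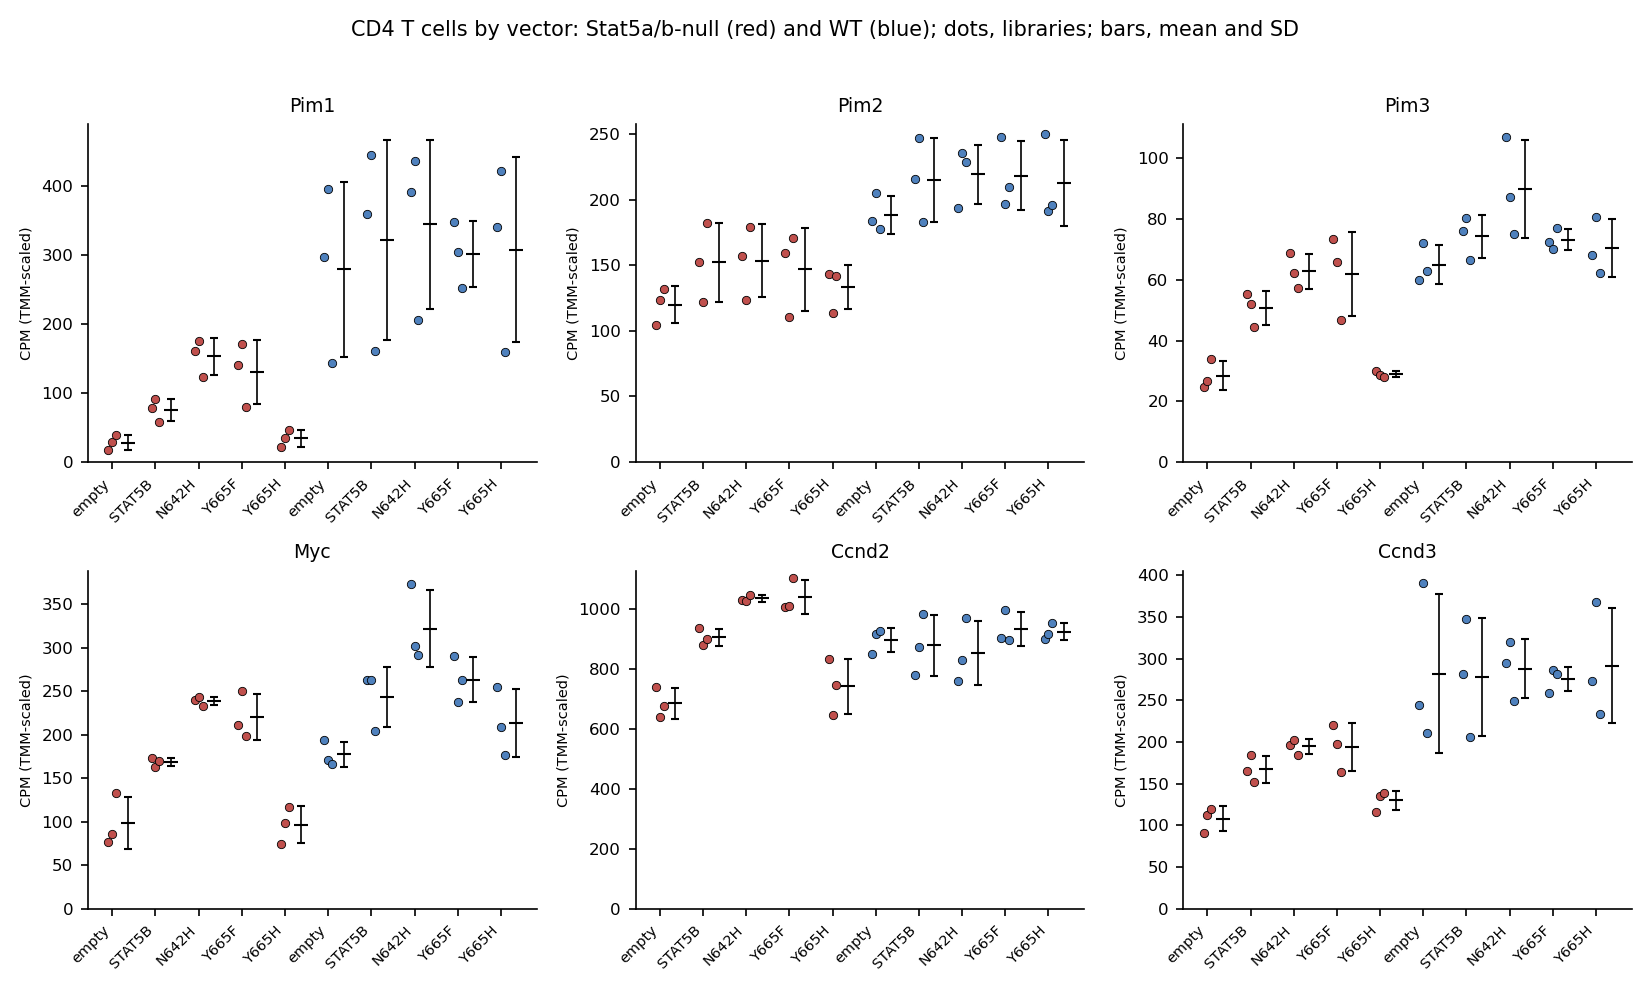
CPM of 6 members in the 10 CD4 groups, each dot a library, bars mean and SD, null cells in red and WT cells in blue. Pim1, Pim3, Myc and Ccnd3 sat lowest in null cells with the empty vector or Y665H, where Pim1 was read between 16.9 and 46.8.

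Each mutant was next compared with unmutated STAT5B in null cells, which asks what the amino acid change adds or removes. N642H against STAT5B passed for 0 of 8 members in edgeR (0.0845% of genes passed), with 2 at an unadjusted p under 0.05 and 0 in DESeq2. Y665F against STAT5B also gave 0 of 8 (0.0199% of genes), with 1 at an unadjusted p under 0.05 and 0 in DESeq2. Pim1 was higher than with STAT5B in all 3 N642H libraries, a difference of 0.99 (SE 0.30, adjusted p = 0.478), and Myc too (0.47, adjusted p = 0.728, 3 of 3). Fitted without the other vectors, these 2 passed with adjusted p of 0.0265 and 0.0248. For Y665F the differences were 0.77 for Pim1 (adjusted p = 0.95) and 0.37 for Myc (adjusted p = 0.987). Of the STAT5 comparators 1, Lta, rose with N642H (1.77), and 0 passed for Y665F.

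Y665H against STAT5B gave 1 of 8 members, Pim3, lower, where 0.229% of genes passed. Pim3 fell by 0.79 (SE 0.15, adjusted p = 0.0352, 3 of 3 below). It did not pass without STAT5B replicate 1 (adjusted p = 0.279), STAT5B replicate 2 (0.194), Y665H replicate 1 (0.121) or Y665H replicate 3 (0.223), nor under RLE scaling (0.0531). Pim1 differed by -1.10 (SE 0.31, adjusted p = 0.166) and Myc by -0.77 (SE 0.18, adjusted p = 0.0937), each with 3 of 3 libraries below all STAT5B ones. With the replicate block both passed, at adjusted p of 0.0227 and 0.00515, for a count of 3. The 0.229% of genes above is from the fit without the block. Of the STAT5 comparators 6 fell, Socs2 by 2.50, and of the MYC targets 1, Srm (-0.89).

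In WT cells the same vectors were added on top of endogenous STAT5. Myc rose with N642H, and no other member passed against the WT empty vector in the main fit. With a replicate block Myc also passed for STAT5B (adjusted p = 0.0252) and Y665F (0.000613), and Pim3 for N642H (0.01). Same-numbered WT libraries correlated over 0.1 in 29 of 30 pairs. With N642H 1 of 8 members passed, higher, where 1.52% of the 20509 genes tested passed. With STAT5B 0 of 8 passed in edgeR (0.00975% of genes), with 1 at an unadjusted p under 0.05 and 0 in DESeq2. With Y665F 0 of 8 passed in edgeR (1.26% of genes), with 1 at an unadjusted p under 0.05 and 1, Myc, in DESeq2. With Y665H 0 of 8 passed in edgeR (0.00488% of genes), with 0 at an unadjusted p under 0.05 and 0 in DESeq2. The median member stood at 0.11, 0.14, 0.15 and 0.13 on the log2 scale with STAT5B, N642H, Y665F and Y665H, and the median of all genes at -0.02, -0.04, -0.08 and -0.01.

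Myc was read at 194, 172 and 167 CPM in WT empty-vector libraries, 373, 302 and 292 with N642H, 290.2, 238 and 263 with Y665F, 264, 263 and 204 with STAT5B and 255, 209 and 177 with Y665H. All libraries with N642H, Y665F or STAT5B lay above the 3 empty-vector ones, and those with Y665H overlapped them. Myc rose by 0.88 with N642H (SE 0.15, adjusted p = 0.00806, 3 of 3). Without N642H replicate 1 it stood at 0.76 and did not pass (adjusted p = 0.0574). With Y665F its difference was 0.58 (SE 0.15, adjusted p = 0.0801, 3 of 3) and with STAT5B 0.46 (SE 0.15, adjusted p = 1, 3 of 3). With Y665H it was 0.27 (SE 0.15, 95% interval -0.03 to 0.56, 2 of 3 above).

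Among the kinases, Pim3 was read at 60.0, 72.3 and 62.9 CPM with the WT empty vector and 107, 87.4 and 75.3 with N642H, a difference of 0.48 with no overlap that did not pass (SE 0.13, adjusted p = 0.0987, 3 of 3 above). Without N642H replicate 3 it passed (adjusted p = 0.0315), and in DESeq2 too (0.0262). Pim1 was read at 297, 395 and 144 CPM with the empty vector and at 391, 436 and 205 with N642H, which overlap. In each same-numbered pair N642H was the higher, and Pim1 did not pass with the replicate block either. Its differences were 0.12 to 0.33 over the 4 constructs (SE 0.40 to 0.41). Pim2 ranged from 177 to 250.3 CPM over the WT groups. Ccnd2 ranged from 762 to 999 CPM and Ccnd3 from 206 to 390.4, and their differences from the empty vector lay between -0.05 and 0.06.

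Mutants were also set against unmutated STAT5B in WT cells. N642H gave 0 of 8 members in edgeR (0.00488% of genes), with 1 at an unadjusted p under 0.05, Myc at 0.41 in 3 of 3 libraries (SE 0.15, adjusted p = 1), and 0 in DESeq2. Y665F gave 0 of 8 in edgeR, where 0% of genes passed and 632 had an unadjusted p under 0.05, with 0 members at an unadjusted p under 0.05 and 0 in DESeq2. Y665H gave 0 of 8 in edgeR (0.00488% of genes), 0 at an unadjusted p under 0.05 and 0 in DESeq2. The median member stood at 0.08, 0.05 and -0.05 for N642H, Y665F and Y665H. Of the genes around the members, Cdkn1a, which encodes the CDK inhibitor p21, rose against the empty vector with N642H and Y665F (1.66 and 1.38), Lta with both (2.03 and 1.98), Mxi1 with N642H (1.54) and Nop16 with Y665F (0.55). Of the 20 MYC targets 0 rose with N642H (median 0.29) and 1 with Y665F (median 0.39). Proliferation and cell type marker genes passed in 0 of the WT comparisons with the empty vector.

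Loss of Stat5a/b was read from null against WT cells with the empty vector in a fit of both backgrounds. Of 8 members 6 passed, all lower, where 13.9% of the 21975 genes passed, and the median member stood at -0.75 against -0.12 for all genes. Pim1 fell by 3.30 (SE 0.42, adjusted p = 4.23e-06), Ccnd3 by 1.39 (SE 0.19, adjusted p = 1.43e-05) and Pim3 by 1.20 (SE 0.15, adjusted p = 3.58e-06), with 3 of 3 null libraries below all WT ones for each. Myc fell by 0.84 (SE 0.17, adjusted p = 0.00121), Pim2 by 0.65 (SE 0.17, adjusted p = 0.009) and Ccnd2 by 0.39 (SE 0.11, adjusted p = 0.0181), again in 3 of 3. Mean Pim1 in null cells was 28.2 CPM (SD 11.2, n = 3), 10.1% of the WT mean of 279 (SD 127, n = 3). Mycn differed by 0.72 (adjusted p = 0.329, 1 of 3 above) and Ccnd1 by 0.44 (adjusted p = 0.426, 3 of 3 above).

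Pim2 did not pass without WT empty-vector replicate 2 (adjusted p = 0.0539) or null empty-vector replicate 1 (0.056). Ccnd2 did not pass without WT empty-vector replicate 2 (0.0633) or 3 (0.0832) or null empty-vector replicate 2 (0.124) or 3 (0.0566), nor with these 2 groups fitted alone (0.0959). Around the members, 13 of 20 MYC targets fell and 0 rose, 9 of 10 STAT5 comparators fell and 1 rose, and in the MYC network Mxd4 (2.26) and Max (0.44) rose and Mxd3 fell (-0.81). Of the cyclin-CDK-RB axis 7 of 20 fell, E2f2 (-1.02) and Ccne1 (-0.99) among them, and 1 rose, Rbl2 (0.65). Bcl2 fell by 1.56, with 3 of 14 PIM substrates and partners lower. All 15 proliferation markers fell (median -0.57), from a summed 7528 CPM (SD 934) in WT to 5217 (SD 606) in null cells. T cell markers rose in 4 and fell in 3 of 12, 1 of 3 coreceptors rose and 1 neutrophil marker fell. Their part in the fall of the members was not tested.

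STAT5B in null cells was compared with WT empty-vector cells to ask how far re-expression brings each member back. Of 8 members 2 passed, both lower, where 1.11% of genes passed. Pim1 remained 1.88 lower on the log2 scale at 27.2% of the WT mean (-1.88, SE 0.40, adjusted p = 0.0137, 3 of 3 below) and Ccnd3 at 59.4% (-0.75, SE 0.19, adjusted p = 0.0469, 3 of 3 below). Pim3 reached 78.0% (-0.36, adjusted p = 0.402, 3 of 3 below), Myc 95.2% (-0.07) and Ccnd2 101% (0.01, and 0.00 under RLE scaling). Stat5b itself stood at 157% of WT in these libraries. With N642H the null cells held Pim1 at 54.9%, Pim3 at 96.6%, Myc at 135% and Ccnd3 at 69.0% of the WT mean, and with Y665F at 46.8%, 95.3%, 124% and 68.7%. With Y665H Pim1 stood at 12.4%, Pim3 at 44.4%, Myc at 54.6% and Ccnd3 at 46.1%. These mutant percentages were not tested against WT cells.

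Both calls were lost when single libraries were left out, with Pim1 then at -1.54 to -1.88 and Ccnd3 at -0.45 to -0.84. Pim1 did not pass without WT empty-vector replicate 1 (adjusted p = 0.0572) or 2 (0.16) or null STAT5B replicate 1 (0.0585) or 3 (0.132). Ccnd3 did not pass without WT empty-vector replicate 1 (0.0765) or 2 (0.594) or null STAT5B replicate 1 (0.159), 2 (0.0781) or 3 (0.259), nor with the 2 groups fitted alone (0.0712). Around the members, Mxd4 (1.32) and Bcl6 (1.27) rose and Socs2 (-1.26) and Il2ra (-0.94) fell. Of the 20 MYC targets and of the 15 proliferation markers 0 passed, and 1 T cell marker fell.

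Ordered by mean, Pim1 was highest in WT N642H, then WT STAT5B, Y665H, Y665F and empty vector, then null N642H, Y665F, STAT5B, Y665H and empty vector, and only null STAT5B and null Y665H were neighbours whose libraries did not overlap. Pim3 had its only such gap at the same place. For Pim2 all neighbours overlapped. For Myc WT N642H stood clear of WT Y665F, and null STAT5B clear of null empty vector. Ccnd3 had gaps between WT Y665F and null N642H and between null STAT5B and null Y665H, and Ccnd2 between null N642H and WT Y665F.

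A construct effect was taken to differ between backgrounds only where the difference itself passed (null effect minus WT effect, 30 libraries). For STAT5B 0 of 8 members passed in edgeR (0.105% of genes), with 4 at an unadjusted p under 0.05 and 0 in DESeq2, and Pim1 at 1.22 (SE 0.55, adjusted p = 0.941). For N642H 0 of 8 passed in edgeR (0.387% of genes), with 4 at an unadjusted p under 0.05 and 2, Pim1 and Ccnd2, in DESeq2. Pim1 differed by 2.13 (SE 0.55, adjusted p = 0.0929) and Ccnd2 by 0.67 (SE 0.16, adjusted p = 0.0534). For Y665H 0 of 8 passed in edgeR (0.00455% of genes), with 0 at an unadjusted p under 0.05 and 0 in DESeq2, and Pim1 at 0.15 (95% interval -0.93 to 1.23). Without WT N642H replicate 3 Ccnd2 passed for N642H (adjusted p = 0.0194), and without WT empty-vector replicate 3 Pim1 did (0.0237). With a replicate block 4 members passed for N642H, namely Pim1, Pim3, Ccnd2 and Ccnd3 (adjusted p = 0.000143, 0.0317, 0.000811 and 0.00722). This block was set within each background. Same-numbered libraries correlated over 0.1 in 30 of 30 null and 29 of 30 WT pairs, which the main fit did not account for. Across backgrounds they did so in 35 of 75 pairs, but such pairs do not enter this block.

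For Y665F 1 of 8 passed, Pim3, where 0.478% of genes passed. The Pim3 effect was 0.96 larger in null than in WT cells (SE 0.21, adjusted p = 0.0289), with null effects above empty in 3 of 3 libraries and WT ones in 2 of 3. It did not pass without WT Y665F replicate 1 (adjusted p = 0.0839) or 2 (0.0967), WT empty-vector replicate 2 (0.14), null Y665F replicate 1 (0.14) or 2 (0.106), or null empty-vector replicate 1 (0.137) or 2 (0.108). Pim1 differed by 2.10 (SE 0.55, adjusted p = 0.11) and passed without WT empty-vector replicate 3 (0.0246) or null Y665F replicate 3 (0.0459). Myc differed by 0.59 (adjusted p = 0.451) and Ccnd3 by 0.88 (adjusted p = 0.226). With the replicate block Pim1 (adjusted p = 0.000419), Ccnd2 (0.00717) and Ccnd3 (0.00491) passed along with Pim3, for a count of 4. The 0.478% of genes above is from the fit without the block. Of the 10 STAT5 comparators 3, 4 and 5 had a higher log2 effect in null than in WT cells for STAT5B, N642H and Y665F. In each case 1, Bcl6, had a lower one, with differences of -2.12, -3.32 and -2.75. Of the PIM partners 1, Bcl2, passed for Y665F (1.28). Of the 20 MYC targets, the 11 MYC network genes and the 20 cyclin-CDK-RB genes 0 passed in these 4 tests, and of the cell type markers 1 T cell marker did, for N642H.

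**Figure D3:**
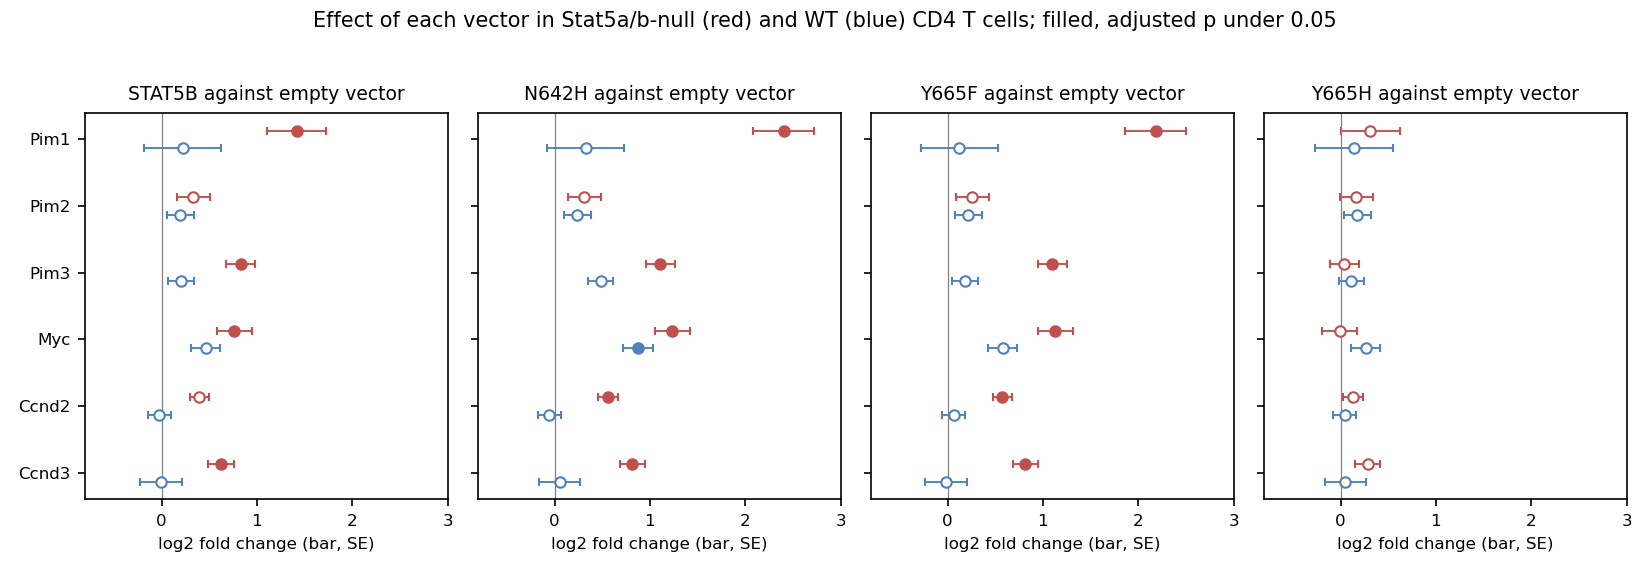
Log2 fold change against the empty vector (error bars SE) of each member for 4 vectors, null cells in red and WT cells in blue, filled where the adjusted p was under 0.05. Pim1 ranged from 0.31 with Y665H to 2.40 with N642H in null cells and stayed between 0.12 and 0.33 in WT cells.

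Over the 30 CD4 libraries, which share vectors, backgrounds and replicate numbers, log2(CPM + 1) of Pim1 had a Pearson r of 0.973 with Ccnd3, 0.939 with Pim3 and -0.609 with Mycn, and Pim3 one of 0.925 with Myc. By means over the 10 CD4 groups, among 11459 genes, the most similar to Pim1 were Il4ra (r = 0.997), Nanos1 (0.995) and Coro2a (0.994), and to Pim3 Crtap (0.991), Ankrd13b (0.990) and Hyou1 (0.989). Those nearest Pim2 were Fdps (0.992), Ndufs7 (0.989) and Rtkn2 (0.989), and nearest Myc 1810055G02Rik, Ankrd13b and Micall2 (0.992 each). Nearest Ccnd2 were Cox10 (0.978), Grwd1 (0.976) and L3mbtl2 (0.975), nearest Ccnd3 She (0.996), D630039A03Rik (0.994) and Zfp608 (0.994), and nearest Ccnd1 D17H6S53E (0.865), Cdpf1 (0.849) and Zfp189 (0.842). Mycn had a mean under 1 CPM and was not compared. The points are few, and over 30 single libraries most of these neighbours changed.

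Splenic T cells of the mutant mice were compared with WT ones under IL-2 and IL-7, to ask what the mutations do at the normal locus. No member passed in any genotype comparison. Y665F against WT gave 0 of 8 in edgeR (1.87% of the 22313 genes passed), with 0 at an unadjusted p under 0.05 and 0 in DESeq2. Y665H against WT gave 0 of 8 in edgeR (0.0762% of genes), with 2 at an unadjusted p under 0.05 and 0 in DESeq2. Y665F against Y665H gave 0 of 8 in edgeR (6.18% of genes), with 1 at an unadjusted p under 0.05 and 0 in DESeq2. The comparisons with Y665H counted the reads of its replicates 1 and 2 again as replicate 4. Their p-values and shares of genes thus rest on more libraries than there were samples. Without replicate 4 the member counts were 0 as well. The median member stood at 0.03, -0.34 and 0.38 and the median of all genes at 0.07, -0.11 and 0.13. RLE scaling moved the median of all genes for Y665F against WT from 0.07 to 0.21. Each genotype serves in 2 of these 3 comparisons.

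Pim1 was read at 385, 572, 757 and 395 CPM in WT, 367, 352, 374 and 367 in Y665H and 564, 581, 325 and 408 in Y665F T cells. All Y665H libraries lay below all WT ones, with a difference of -0.53 (SE 0.22, adjusted p = 0.518). They stand for at most 3 samples, since replicate 4 is replicates 1 and 2 added together. The SE and p-value count the same reads again. Myc was read at 126, 158, 220.3 and 132 CPM in WT, 122, 85.1, 96.9 and 109.8 in Y665H and 146, 168, 71.1 and 125 in Y665F. Again the Y665H libraries lay below all WT ones (-0.62, SE 0.26, adjusted p = 0.505), with the same limit from replicate 4. Pim2 was read at 111, 91.2, 112 and 51.7 CPM in WT, 90.2, 88.0, 82.7 and 90.8 in Y665H and 119.5, 137, 107 and 129.7 in Y665F, the last above all Y665H libraries (0.49, SE 0.28, adjusted p = 0.312, 4 of 4 above).

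Ccnd2 stood at 602 to 994 CPM in WT, 546 to 713 in Y665H and 603 to 975 in Y665F, with overlap throughout. Mycn was near its limit of detection, at 0.247 to 0.602 CPM in WT, 0.692 to 1.20 in Y665F and 0, 0, 0.417 and 0 in Y665H. A count of 0 allows up to 0.856 CPM in replicate 1 and 1.46 in replicate 2 (3 reads, counting error only). In replicate 4, which is replicates 1 and 2 added together, it allows up to 0.548. A difference from WT was thus not detectable at this depth. For Y665F against Y665H its difference was 2.24 (SE 0.94, adjusted p = 0.167, 4 of 4 above), with reads in only 1 Y665H library. The limits of replicates 1 and 2 alone, 0.856 and 1.46, reach the Y665F values. That of replicate 4, 0.548, lies below all of them. Pim3 ranged from 0.972 to 17.5 CPM, Ccnd1 from 1.46 to 10.9 and Ccnd3 from 20.9 to 73.4 over the 12 libraries with interleukins. Y665F against WT had Pim1 at -0.17 and Myc at -0.31, and without Y665F replicate 3 at -0.03 and -0.12, again with 0 of 8. Without Y665H replicate 2, Y665H against WT had Pim1 at -0.51 and Myc at -0.54, again with 0 of 8. Y665F against Y665H had Mycn at 2.21 without the former library and 2.08 without the latter, with 0 of 8 both times. Leaving out both shallow libraries kept the counts at 0. In the fits without Y665H replicate 2, its reads were still part of replicate 4, so that they did not fully remove this library.

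Y665F T cells kept for 24 h with IL-2 and IL-7 were compared with Y665F T cells without interleukins. Since no culture is given for the latter, interleukins and time in culture cannot be told apart here. Pim1, Pim2, Myc and Ccnd2 rose, 4 of 8 members, all higher, where 3.85% of genes passed. The median member stood at 1.35 and the median of all genes at -0.13 (-0.28 under RLE scaling). Reads without a gene made up 85.7, 82.0 and 77.7% in the libraries without interleukins and 67.6, 72.8, 84.0 and 79.6% in those with them. The part of this in the member changes was not tested. Without interleukins Pim1 was read at 181, 272 and 216 CPM, Pim2 at 21.6, 70.2 and 28.2, Myc at 29.0, 53.6 and 26.0 and Ccnd2 at 168, 246 and 238. All 4 libraries with interleukins lay above these for each of the 4 genes. Ccnd2 rose by 1.96 (SE 0.23, adjusted p = 1.23e-05), Myc by 1.82 (SE 0.29, adjusted p = 0.000349), Pim2 by 1.62 (SE 0.31, adjusted p = 0.00212) and Pim1 by 1.07 (SE 0.25, adjusted p = 0.0111), in 4 of 4 libraries each.

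Pim1 did not pass without interleukin-free replicate 1 (adjusted p = 0.131) or replicate 3 (0.0688). Without Y665F replicate 3, the library rich in erythroid markers, the 4 rises were 2.09, 2.02, 1.68 and 1.21 for Ccnd2, Myc, Pim2 and Pim1. Mycn differed by 2.35 (SE 0.95, adjusted p = 0.201, 4 of 4 above), Pim3 by 0.73 (adjusted p = 0.471, 3 of 4 above), Ccnd3 by 0.26 (adjusted p = 0.726, 2 of 4) and Ccnd1 by -0.07 (2 of 4 below). Ordered by mean, Pim1 and Myc stood in the order WT, Y665F, Y665H and interleukin-free, Pim2 and Ccnd2 in the order Y665F, WT, Y665H and interleukin-free, and for these 4 genes only the last group stood clear of its neighbour.

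With interleukins 15 of 20 MYC targets rose (median 1.22), Srm by 2.93 and the nucleoside diphosphate kinase Nme1 by 1.96, and 9 of 10 STAT5 comparators rose (median 2.07). Of the cyclin-CDK-RB axis 6 rose and 1 fell, with Cdk6, a partner of the D cyclins, at 3.74. Of the PIM partners 5 rose and 1 fell, with Eif4ebp1, Bcl2l1 and Bcl2 at 2.00, 1.98 and 1.84. Mxd1 rose by 1.81. Proliferation markers rose in 8 of 15, from a summed 275 to 761 CPM, and NK cell markers in 2 of 3, from 28.4 to 79.0. T cell markers fell in 1 of 12 (2560.4 CPM without and 2743 with interleukins) and 1 of 3 coreceptors rose. Erythroid markers summed to 30.9 CPM without and 296 with interleukins, B cell markers to 48.9 and 265, neutrophil markers to 124 and 143 and macrophage markers to 59.6 and 40.2, with 0 genes passing. The first 3 means with interleukins were raised by Y665F replicate 3 (1077, 775 and 318), and the other 3 libraries held 7.07 to 84.9, 23.9 to 217 and 80.1 to 87.6. Their part in the member changes was not tested.

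Between genotypes, Y665F against Y665H had 4 of 20 MYC targets higher (Odc1 by 1.99), 6 of 10 STAT5 comparators (Il2ra by 2.03), 5 higher and 1 lower of the cyclin-CDK-RB axis (Cdkn1a 2.73), 2 higher and 1 lower of the PIM partners (Bcl2l1 1.73) and Mxd1 higher (1.66). Proliferation markers rose in 10 of 15, with 761 CPM in Y665F (SD 106), 340.1 in Y665H (SD 83.8) and 509.7 in WT (SD 68.9), B cell markers in 5 of 10, NK cell markers in 3 of 3, erythroid and neutrophil markers in 2 each, and T cell markers fell in 1. Y665F against WT had Ccna2 (1.24) and Mxd1 (1.45) higher and Cdkn1b, the gene of p27, lower (-1.16). Of its 20 MYC targets 0 passed (median -0.38), and of the 10 STAT5 comparators 0. There neutrophil markers rose in 5 of 10 (14.5 CPM in WT, 143 in Y665F, 80.1 to 87.6 in its libraries other than replicate 3), erythroid in 2, B cell and proliferation markers in 1 each, and T cell markers and coreceptors fell in 1 each. Y665H against WT had 1 MYC target lower, Odc1 (-1.57), and 1 neutrophil marker higher, with 0 passing in all other lists. All list counts and the SD for Y665H here took replicate 4, which is replicates 1 and 2 added together, as a separate library.

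**Figure D4:**
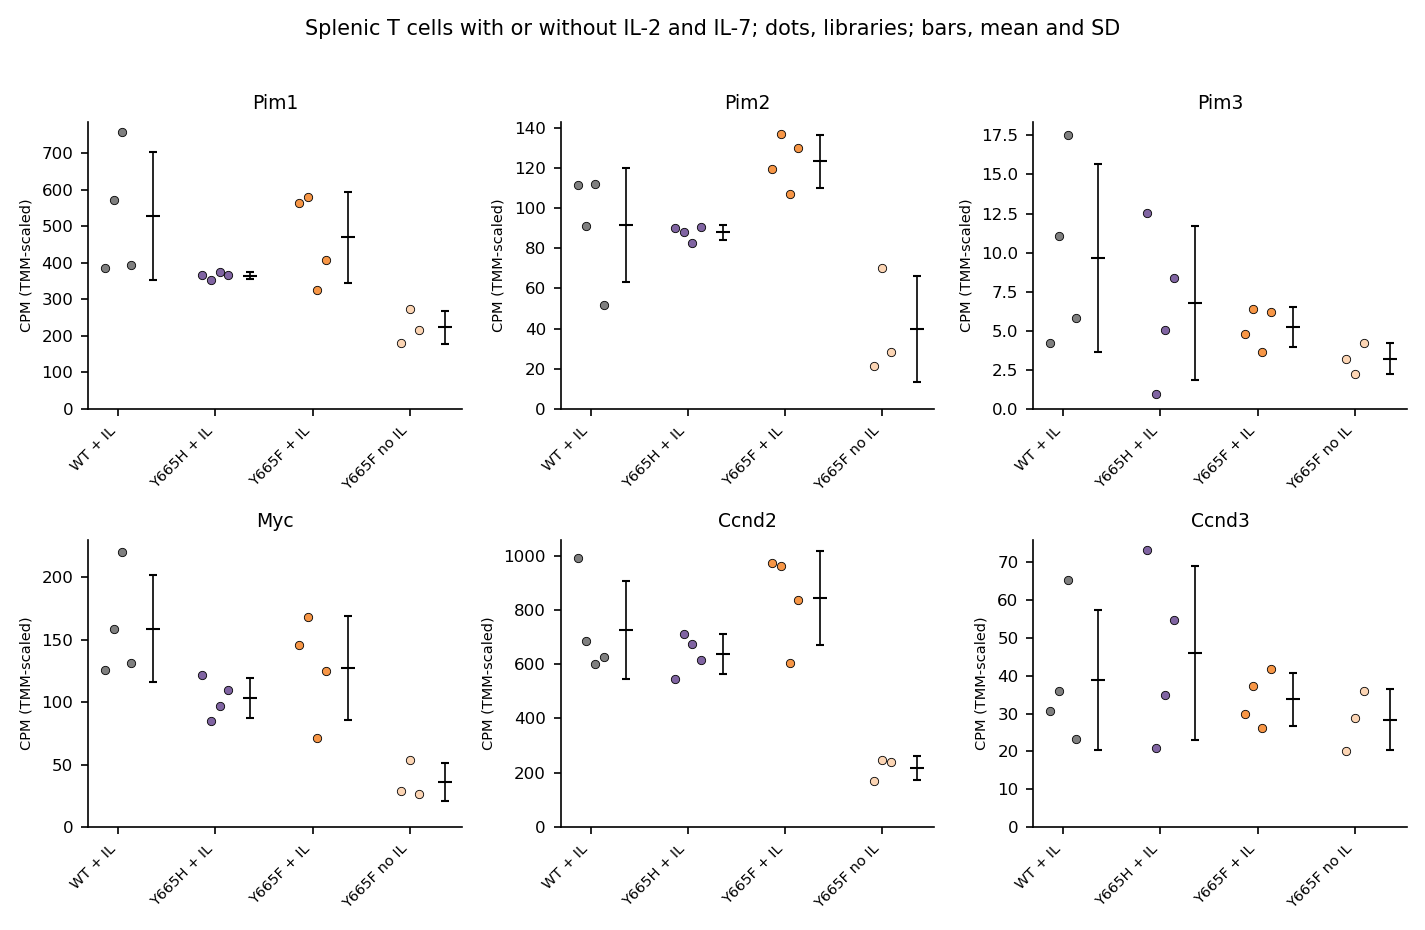
CPM of 6 members in the 4 splenic T cell groups, each dot a library, bars mean and SD. Y665H replicate 4 is replicates 1 and 2 added together. For Pim1, Pim2, Myc and Ccnd2 the 3 libraries without interleukins sit below all 4 Y665F libraries with them, Ccnd2 at 168 to 246 against 603 to 975.

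Unstimulated spleens of the mutant mice were compared with WT spleens, and with each other, to ask what the alleles do without added interleukins. Pim1, Pim2, Myc, Ccnd2 and Ccnd3 rose in Y665F spleens, and Pim1 and Ccnd3 rose while Ccnd2 fell in Y665H spleens. For Y665F 5 of 8 members passed, all higher, where 12.2% of the 19418 genes passed. For Y665H 3 of 8 passed, 2 higher and 1 lower, where 19.8% of genes passed. Y665F against Y665H gave 4 of 8, all higher in Y665F, where 25.8% of genes passed. The median member stood at 0.46, 0.17 and 0.32 and the median of all genes at 0.00, 0.00 and -0.01. No member passed with a log2 fold change over 1 in these 3 comparisons, which share their groups.

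Pim1 was read at 55.0, 43.8, 63.3 and 50.2 CPM in WT and 64.2, 86.4, 100.2, 78.1 and 95.8 in Y665H spleens, and at 67.9, 69.9 and 76.6 (lowest, median, highest of 7) in Y665F spleens. Every mutant spleen lay above every WT one. Pim1 rose by 0.43 in Y665F (SE 0.11, adjusted p = 0.0164, 7 of 7 above) and 0.68 in Y665H (SE 0.11, adjusted p = 0.00158, 5 of 5 above). Y665F stood 0.25 below Y665H without passing (-0.25, SE 0.10, adjusted p = 0.0685, with overlap). Without WT replicate 2 the Y665F call was lost (adjusted p = 0.0794).

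Pim2 was read at 21.4, 18.9, 24.6 and 23.1 CPM in WT, 25.6, 25.8, 26.2, 23.5 and 26.5 in Y665H and 27.1, 29.6 and 36.9 (lowest, median, highest) in Y665F. The Y665F spleens lay above all others. Pim2 rose by 0.50 against WT (SE 0.09, adjusted p = 0.00197, 7 of 7) and by 0.29 against Y665H (SE 0.08, adjusted p = 0.0162, 7 of 7), the latter lost without Y665F replicate 5 (adjusted p = 0.0524). In Y665H against WT it differed by 0.21 (SE 0.09, adjusted p = 0.125, 4 of 5 above). Pim3 stood at 4.19 to 9.20 CPM in WT, 6.08 to 10.7 in Y665H and 6.80 to 11.1 in Y665F and did not pass.

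Myc was read at 32.8, 32.6, 35.4 and 34.7 CPM in WT, 43.1, 39.0, 35.6, 29.5 and 37.6 in Y665H and 42.5, 50.2 and 60.9 (lowest, median, highest) in Y665F. Y665F lay above all WT spleens, and Y665H spread around them. Myc rose by 0.59 in Y665F against WT (SE 0.10, adjusted p = 0.00123, 7 of 7) and by 0.46 against Y665H (SE 0.09, adjusted p = 0.00128, 6 of 7), and in Y665H against WT it differed by 0.12 (SE 0.10, adjusted p = 0.434, 4 of 5 above). Mycn stood between 1.19 and 2.10 CPM, with a difference of 0.37 in Y665F against WT (adjusted p = 0.105, 4 of 7 above).

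Ccnd2 was read at 295, 335, 279 and 287 CPM in WT, 275, 258, 228, 258 and 223 in Y665H and 439, 462 and 495 (lowest, median, highest) in Y665F. The 3 genotypes did not overlap. Ccnd2 rose by 0.64 in Y665F (SE 0.07, adjusted p = 2.7e-05, 7 of 7), fell by 0.27 in Y665H (SE 0.07, adjusted p = 0.0124, 5 of 5 below) and stood 0.91 higher in Y665F than in Y665H (SE 0.06, adjusted p = 4.83e-08, 7 of 7). The Y665H call was lost without WT replicate 2 (adjusted p = 0.0917) and with these 2 groups fitted alone (0.0939).

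Ccnd3 was read at 35.4, 35.2, 66.7 and 46.9 CPM in WT, 62.8, 105.6, 108, 73.7 and 83.7 in Y665H and 57.3, 71.7 and 79.0 (lowest, median, highest) in Y665F. Here WT replicate 3 overlapped both mutants. Ccnd3 rose by 0.91 in Y665H (SE 0.19, adjusted p = 0.00347, 4 of 5 above) and 0.58 in Y665F (SE 0.18, adjusted p = 0.0397, 4 of 7 above). The Y665F call was lost without WT replicate 1 (adjusted p = 0.167), 2 (0.15) or 4 (0.0587) or Y665F replicate 1 (0.0599), 2 (0.0575) or 5 (0.0711). Ccnd1 was read at 90.5, 83.0, 89.8 and 91.1 CPM in WT, 91.6, 76.1, 66.9, 81.02 and 66.8 in Y665H and 89.7, 101.8 and 115.5 (lowest, median, highest) in Y665F. It was 0.42 higher in Y665F than in Y665H (SE 0.08, adjusted p = 0.00133, 6 of 7 above), and against WT it differed by 0.20 in Y665F (adjusted p = 0.131, 6 of 7 above) and -0.21 in Y665H (adjusted p = 0.118, 4 of 5 below).

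Without Y665H replicate 1, the spleen that stood apart, Y665H against WT had Pim1 at 0.80 (adjusted p = 2.55e-05), Ccnd3 at 1.04 (adjusted p = 0.000407), Ccnd2 at -0.27 (adjusted p = 0.00582) and Ccnd1 at -0.25, which then passed (adjusted p = 0.0322). Y665F against Y665H then also had Pim1 (-0.36, adjusted p = 0.00337) and Ccnd3 (-0.45, adjusted p = 0.0347) lower, for a count of 6.

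Cell type markers differed between the spleens as well. Proliferation markers summed to 2295 CPM in WT (SD 783), 6589 in Y665H (SD 2664) and 2506 in Y665F (SD 766), with Mki67 the most abundant. All 15 rose in Y665H (median 1.34), 0 passed in Y665F against WT (median 0.19), and all 15 were lower in Y665F than in Y665H. Erythroid markers summed to 1095, 3661 and 935 CPM in WT, Y665H and Y665F, with 5 of 7 higher in Y665H than in WT and 5 lower in Y665F than in Y665H, and Hbb-bt at 0. T cell markers summed to 824, 589 and 1200.1 CPM, with 7 of 12 lower in Y665H, 8 higher in Y665F and 12 higher in Y665F than in Y665H. Of the 3 coreceptors 2 fell in Y665H and 2 rose in Y665F (187 and 405 CPM against 289), and all 3 were higher in Y665F than in Y665H.

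Neutrophil markers, with S100a9 the most abundant, summed to 320.3, 1015 and 705 CPM, with 8 of 10 higher in Y665H, 5 higher in Y665F and 2 lower in Y665F than in Y665H. B cell markers, led by Cr2, summed to 4687, 3790.5 and 3687 CPM, with 5 of 10 lower in Y665H, 3 lower in Y665F and 1 lower in Y665F than in Y665H. Macrophage markers, led by Vcam1, summed to 1596, 1560.4 and 1130.2 CPM, with 0 of 10 passing in Y665H, 4 lower in Y665F and 5 lower in Y665F than in Y665H. NK cell markers summed to 60.5, 25.9 and 38.8 CPM, with 3 of 4 lower in Y665H, 1 lower in Y665F and 2 higher in Y665F than in Y665H, and Klra4 at 0. The part of these markers in the member changes was not tested.

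Of 10 STAT5 comparators 8 rose in Y665F against WT (median 0.68, Cish by 1.81), 4 fell in Y665H (median -0.19, Il2ra by 0.78), and 7 were higher in Y665F than in Y665H. Of 20 MYC targets 7 rose in each mutant against WT, in Y665F with Srm (0.53) and Rrp12 (0.52) and in Y665H with the transferrin receptor gene Tfrc (1.75) and Odc1 (1.34), and 2, Tfrc and Odc1, were lower in Y665F than in Y665H. Of the 20 genes of the cyclin-CDK-RB axis 3 rose and 1 fell in Y665F, 14 rose and 1 fell in Y665H, and 3 were higher and 12 lower in Y665F than in Y665H. E2f1, a driver of S phase genes, rose by 0.96 in Y665F and 1.70 in Y665H. In the MYC network 0 of 11 passed in Y665F, 3 rose and 2 fell in Y665H (Mxd3 1.69), and 1 was higher and 3 lower in Y665F than in Y665H. Of 14 PIM substrates and partners 2 rose in Y665F (Cdkn1a 0.70, Bcl2 0.44), 5 rose and 3 fell in Y665H (Bcl2l1 1.30), and 3 were higher and 5 lower in Y665F than in Y665H.

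Pim1, Myc, Ccnd2 and the other members moved with each other to differing degrees in the 2 materials. Over 15 splenic T cell libraries r was 0.944 for Pim1 with Myc, 0.865 for Pim2 with Ccnd2 and 0.851 for Myc with Ccnd2. Over 16 spleen libraries it was 0.915 for Pim1 with Ccnd3, 0.840 for Ccnd1 with Ccnd2 and 0.773 for Myc with Ccnd2. The libraries within each set share genotypes and, in part, depth, and splenic T cell Y665H replicate 4 is replicates 1 and 2 added together.

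**Figure D5:**
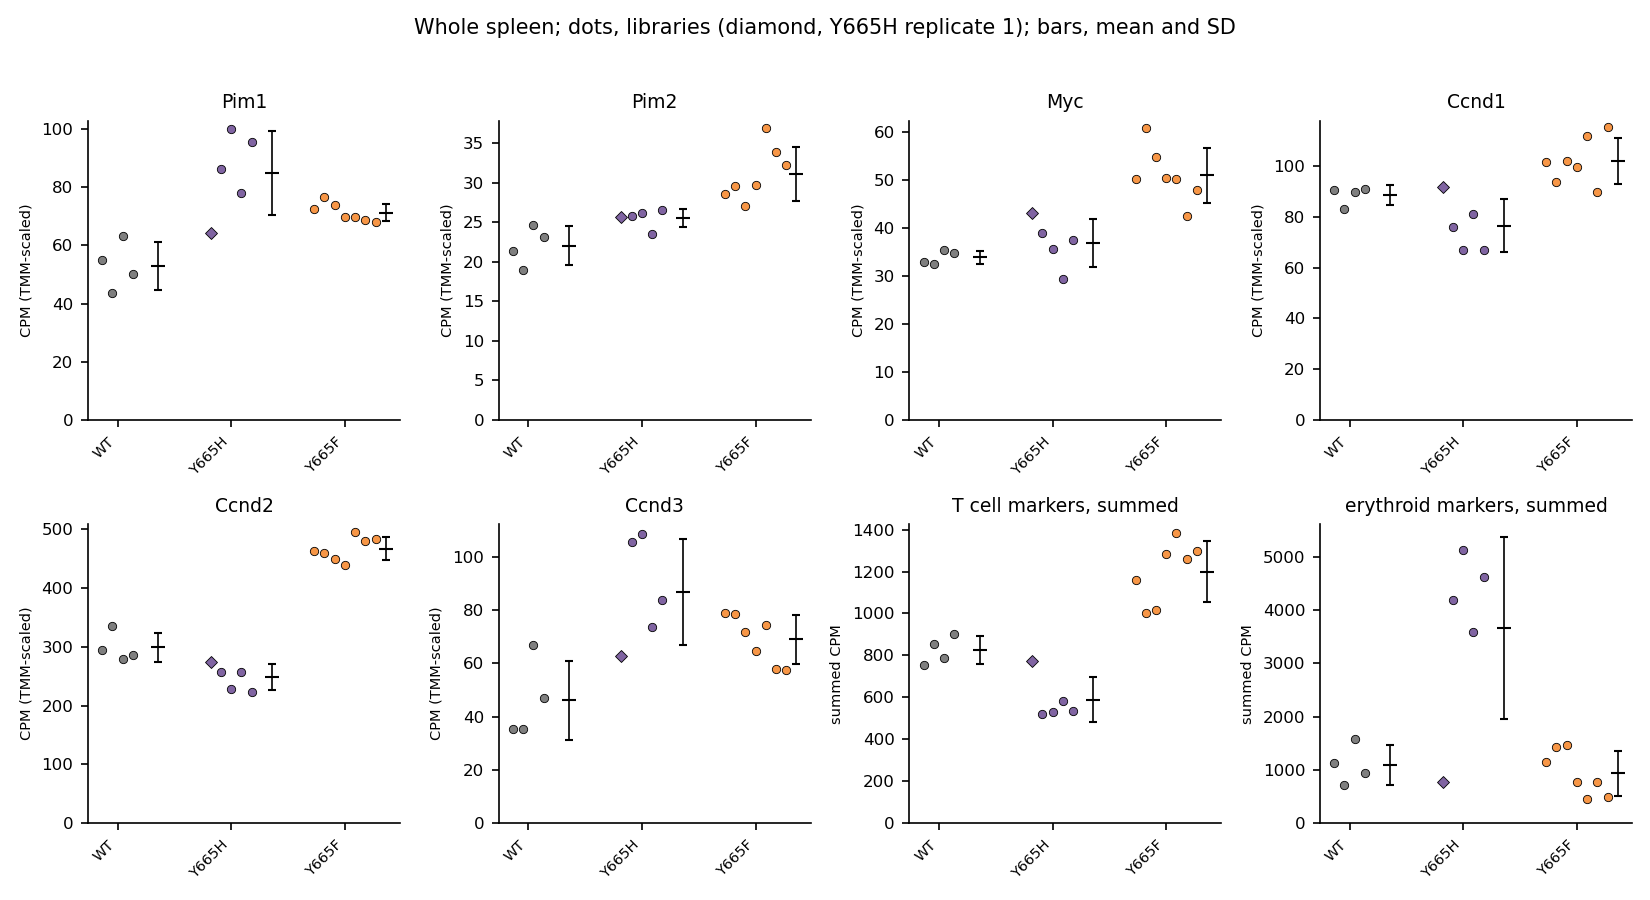
CPM of 6 members and summed CPM of T cell and erythroid markers in the 3 spleen groups, each dot a library, bars mean and SD, with Y665H replicate 1 as a diamond. Ccnd2 separates the 3 genotypes, from 223 to 275 in Y665H, 279 to 335 in WT and 439 to 495 in Y665F.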

How the data were processed

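RNA-seq was done on 61 libraries in 17 groups: 30 of CD4+ T cells, 15 of splenic T cells and 16 of spleen. The authors deposited counts per gene (raw HTSeq counts, 24421 genes by symbol). The submitters' processing notes name FastQC 0.11.9, Trimmomatic 0.36, STAR, SAMtools 1.9, Picard 2.9.2, HTSeq 0.9.1 and mm10, and state neither the annotation release nor the strand setting. Reads without a gene, 28.4 to 36.9% in CD4 cells, 63.9 to 85.7% in splenic T cells and 62.8 to 69.4% in spleen, did not enter library sizes or tests. Depth per library was 2017012 to 49850689 reads on genes.

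The 8 members and all lists were chosen with earlier results of these data known. Named list genes are, per comparison, at most the 3 passing genes of a pathway list with the largest change, and per marker list its most abundant gene and those at 0. The 3 genes most similar to each member are those of highest Pearson r over the 10 CD4 group means of log2(CPM + 1). In R 4.3.3, edgeR 4.0.16 (with limma 3.58.1) fitted quasi-likelihood models with TMM factors to genes with at least 10 reads over a fit's libraries, for null cells, WT cells, both, splenic T cells and spleens, 27 comparisons in all. P-values are two-sided and Benjamini-Hochberg adjusted over all genes of a fit, and the threshold was 0.05. The steps were tested on simulated data. Replicate numbers were checked for pairing: 30 of 30 pairs of same-numbered null libraries had a correlation over 0.1.

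Alternatives were RLE scaling, DESeq2 1.42.0, filterByExpr, no filter, groups fitted alone, a fit of both backgrounds, a replicate block (with it, 3 members passed for Y665H against STAT5B in null cells), a minimum log2 change of 1, each library left out in turn, and, chosen after seeing the depths, splenic T cell libraries under 3000000 reads left out. No library was left out of the reported values. Splenic T cell Y665H replicate 4, the reads of replicates 1 and 2 added together, was thus counted in them as a library. Shares of all genes given beside member counts are of the main fit, without a block. For the differences between backgrounds the replicate block was set within each background.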

Additional observations from a re-analysis of the deposited data

Results flagged for a closer look

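A test for single libraries far from the others of their group marked 7 cases among 96 groups of 4 to 7 libraries tested over the members and the summed markers, and chance flags about 1 in 20 groups. Mycn in splenic T cell Y665H replicate 3 was 0.417 CPM with replicates 1, 2 and 4 at 0 reads, which allows up to 0.856, 1.46 and 0.548 CPM there. Replicate 4 is replicates 1 and 2 added together, so that the test counted these 0 reads again. Replicate 3 was thus not shown to stand apart. It was also the deepest of the 4 (15896125 reads). Ccnd1 was 4.33 CPM in splenic T cell WT replicate 4 (others 6.97 to 7.23) and 83.0 in spleen WT replicate 2 (others 89.8 to 91.1). Summed T cell markers were 774 CPM in spleen Y665H replicate 1 (others 522 to 583). Splenic T cell Y665F replicate 3 with interleukins held 1077 CPM of erythroid markers (others 7.07 to 84.9) and 318 of neutrophil markers (others 80.1 to 87.6). Splenic T cell WT replicate 1 held 137 CPM of NK cell markers (others 30.5 to 48.2).

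The Pim3 effect of Y665F differed between null and WT CD4 cells by 0.96 on the log2 scale (adjusted p = 0.0289 by the test of the difference itself). For Pim1 all Y665H libraries of splenic T cells lay below WT (-0.53, adjusted p = 0.518), where replicate 4 is replicates 1 and 2 added together. All 5 Y665H spleens lay above WT (0.68, adjusted p = 0.00158). The difference between these 2 materials was not tested.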

How the results depend on the processing

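The members passing were recounted for all 27 comparisons. Without a filter all 27 counts were the same, and no member or list gene that passed changed sign under any alternative. The counts of 5 for N642H and Y665F against the empty vector in null cells held in every alternative but the fold minimum. Other counts moved as follows, and the cause was not tested.

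With a log2 fold change over 1 also asked for, the count was 1 for null STAT5B against empty, 3 for N642H and 3 for Y665F, 0 for Y665H against STAT5B, 0 for WT N642H, 3 for null against WT empty, 1 for null STAT5B against WT empty, 0 for the Y665F difference between backgrounds and 0 for all 3 spleen comparisons. With DESeq2 it was 5 for null STAT5B against empty, 2 for null Y665H against STAT5B, 2 for WT N642H, 1 for WT Y665F, 2 for the N642H difference between backgrounds and 3 for the Y665F one. With RLE scaling it was 0 for null Y665H against STAT5B and 1 for the N642H difference, and with filterByExpr 0 and 1, and 5 for null STAT5B against empty. The RLE count for null STAT5B against empty was 4 as before, with Myc lost (adjusted p = 0.0507) and Ccnd2 gained (0.0346). In the fit of both backgrounds it was 2 for null STAT5B and 2 for null Y665H against STAT5B. With groups fitted alone it was 2 for null STAT5B, 2 for null N642H against STAT5B, 5 for null against WT empty, 1 for null STAT5B against WT empty and 2 for spleen Y665H against WT. With a replicate block it was 5 for null STAT5B against empty, 3 for null Y665H against STAT5B, 1 for WT STAT5B (Myc adjusted p = 0.0252), 2 for WT N642H (Myc and, newly, Pim3 0.01), 1 for WT Y665F (Myc 0.000613), 4 for the N642H difference (Pim1 adjusted p = 0.000143, Pim3 0.0317, Ccnd2 0.000811, Ccnd3 0.00722), 4 for the Y665F difference (Pim3 and, newly, Pim1 0.000419, Ccnd2 0.00717, Ccnd3 0.00491), 2 for spleen Y665F against WT, 2 for spleen Y665H against WT (Ccnd2 0.0565) and 3 for spleen Y665F against Y665H. Within null cells the block changed no other call. Same-numbered libraries had a correlation over 0.1 in 29 of 30 pairs of WT cells, 35 of 75 of null with WT cells, 5 of 21 of splenic T cells and 4 of 13 of spleens. Leaving out shallow splenic T cell libraries, chosen after seeing the data, gave 0, 0, 0 and 4 as before, with the reads of Y665H replicate 2 still within replicate 4.

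Leaving out 1 library at a time gave 0 to 4 members for null STAT5B, 0 to 1 for null Y665H against STAT5B, 0 to 2 for WT N642H, 4 to 6 for null against WT empty, 0 to 2 for null STAT5B against WT empty, 0 to 1 and 0 to 2 for the N642H and Y665F differences, 0 to 1 for splenic T cell Y665F against Y665H (Mycn, against a group left with 0 reads, so not a measured change), 3 to 4 for interleukins, 3 to 5, 2 to 4 and 3 to 6 for spleen Y665F against WT, Y665H against WT and Y665F against Y665H, 5 to 5 for null N642H and Y665F and 0 to 0 for the rest.

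Counts over all genes moved by over 1.5 times in 22 of 27 comparisons with DESeq2, 24 of 27 with the block, 0 with RLE, 3 with filterByExpr, 5 without a filter, 9 of 23 fitted alone, 6 of 14 with both backgrounds, 11 with the fold minimum, 3 of 4 without shallow libraries and 100 of 207 with 1 library left out. RLE moved the share of passing genes that were higher from 76.3% to 57.2% for interleukins and from 19.6% to 30% for null Y665H against STAT5B. Group means moved beyond their SD in 4 of 136 cases with CPM of the library total and 32 of 136 with TMM over all 61 libraries. Of the 3 most similar genes at most 1 was kept for 1 of 7 members with a pseudocount of 0.1 and for 7 of 7 over 30 libraries. Counts of passing genes in the lists moved in 240 of 2484 cases with 1 library left out, 88 of 324 with the block and 62 of 324 with DESeq2. They moved in 51 of 324 cases with the fold minimum, 31 of 276 fitted alone, 22 of 324 with filterByExpr and 14 of 324 with RLE. Depth limits Mycn, Ccnd1 and Pim3 in splenic T cells, where counts were low.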
